A study of Danio rerio with 8 samples.

Results

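The cytosolic ribosomal protein genes code for the proteins that, with ribosomal RNA, make up the large and the small subunit of the ribosome in the cytoplasm. The proteins are needed together, and their genes are known for coordinated expression. Many of these mRNAs start with a run of pyrimidines, through which mTOR signalling controls their translation, and the liver, which secretes large amounts of protein, depends on this machinery. One of them, rpl13a, was the reference gene of the RT-PCR in the study from which these data come, so that its level on each diet bears on those measurements.

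Genes were taken by symbol: names of the form rpl or rps with a number, the stalk genes rplp0, rplp1, rplp2 and rplp2l, and rpsa, without the rps6k kinases. Of 32520 genes listed, 83 matched, and 82 had at least 10 counts over all fish. The exception was rpl26 (ENSDARG00000102317), which had no count in any fish. The counts leave out reads that map equally well to several places, and whether such reads came from rpl26 was not tested. Of the 82 members, 46 were assigned to the large subunit and 35 to the small subunit, by the start of their symbol alone. This holds also for genes named after another member, such as rpl7l1, whose place in the ribosome was not checked. The remaining 1, rps19bp1, matches the name pattern but codes for a protein that binds RPS19. The name table used gives most members a human-style symbol, written here in lower case. It calls the gene taken as rpsa RPSA2, and it gives some symbols, such as rpl5 and rps26, to a pair of identifiers.

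Whole livers of 8 female zebrafish, 36 weeks of age, were sequenced, 1 library per fish. From day 21, 4 fish were fed the Control diet, whose protein came from several sources including casein and fish protein. The other 4 were fed the Whole Egg diet from that day, in which whole egg replaced about 50% of the protein. By the study's formulation, the Whole Egg diet also held more lipid and energy and less wheat starch than the Control diet. Both diets were fed at about 6% of body weight per day. A difference between the diets here covers all of these. Fish are called by diet and by the number in their labels (Control-1, Whole Egg-1 and so on), and values for all fish of a diet are given in the order of these numbers. The p-values reported here set the difference between the diets against the spread between single livers. The study fed the diets by tank, and the labels do not name the tank of a fish. Fish that shared a tank can therefore not be told apart from others. In whole tissue, fewer cells of a type and less RNA per cell cannot be told apart.

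The libraries held 16916307 to 35871236 counts on genes. From 64.9% of these in Whole Egg-2 to 76.0% in Control-1 fell on 10 genes. All 16 hepatocyte markers listed were detected. Their summed CPM (counts relative to library size, which TMM scaling adjusts) lay between 232512 (Whole Egg-2) and 810956 (Control-4), of which the vitellogenins vtg1 and vtg2 took 91.4% to 96.6%. Markers of other cell types were also detected: 15 ovary genes summed to 670 CPM in Whole Egg-2 against 4.52 to 80.2 in the other 7 fish, 16 exocrine pancreas genes to between 175 (Whole Egg-1) and 2167 CPM (Control-2), and 13 intestine genes to 289 CPM in Control-2 against 9.63 to 22.1 in the others.

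The members moved up and down together from fish to fish, and the diets overlapped. Their summed level was 42530 CPM in Control-1, 28133 in Control-2, 37140 in Control-3 and 52533 in Control-4. On the Whole Egg diet it was 33689 CPM in Whole Egg-1, 18894 in Whole Egg-2, 32498 in Whole Egg-3 and 42062 in Whole Egg-4. The Control fish had a mean of 40084 ± 10205 CPM and the Whole Egg fish one of 31786 ± 9590 CPM (SD, n = 4 each). The highest fish, Control-4, held 2.78 times the level of the lowest, Whole Egg-2. Of the 82 members, 78 were lowest in Whole Egg-2 and 78 were highest in Control-4 with TMM scaling, and 76 were both. By share of total counts, 71 were instead highest in Whole Egg-4. The shares of all genes tested with these patterns are not reported here.

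Which fish were high depended on how the libraries were scaled. TMM factors, which adjust the total counts for differences between libraries in how reads are spread over genes, ran from 0.682 in Control-4 to 1.72 in Whole Egg-2. Whole Egg-3, with a like share of counts on its 10 top genes (65.8%, against 64.9% in Whole Egg-2), had a factor of 1.18. As a plain share of all counts on genes, the members took 3.35% ± 0.154 in Control fish and 3.58% ± 0.482 in Whole Egg fish (SD, n = 4 each), with Whole Egg-4 highest at 4.13% and Whole Egg-1 lowest at 3.12%. Outside the 10 genes with the most counts of each fish, they took 12.7% ± 2.15 in Control fish and 11.2% ± 1.59 in Whole Egg fish (SD, n = 4 each). The mean of the Whole Egg diet was below that of the Control diet with TMM and outside the 10 genes, and above it as a share of all counts, and on all 3 scales the fish of the diets overlapped.

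**Figure D1:**
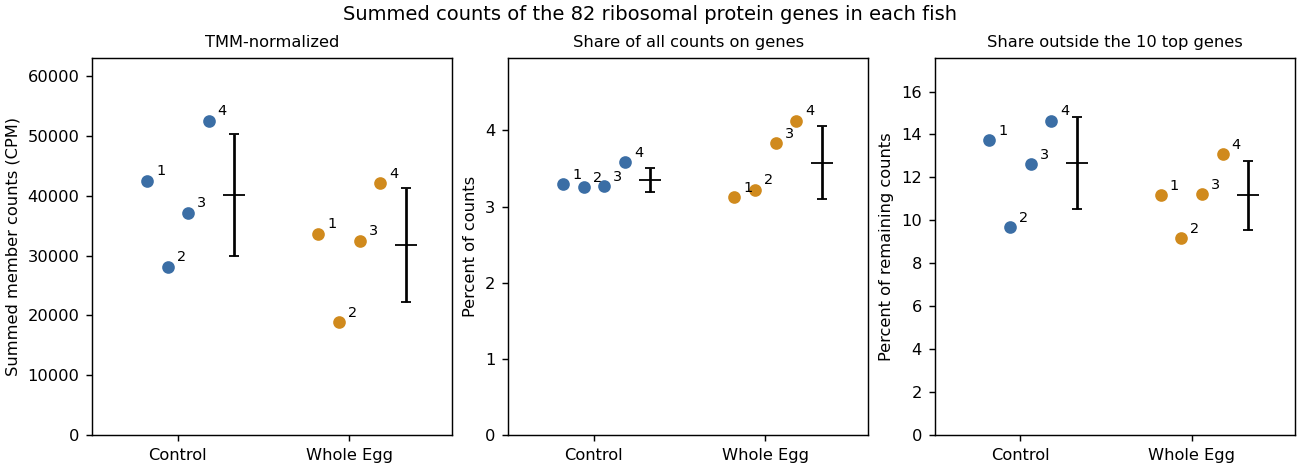
Summed counts of the 82 members in each fish on 3 scales: TMM-normalized CPM, percent of all counts on genes, and percent of the counts outside the 10 genes with the most counts; points are fish with their numbers, and bars give the mean and SD of 4 fish. The Whole Egg mean lies below the Control mean in the first (31786 against 40084 CPM) and above it in the second (3.58% against 3.35%).

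The comparison of the diets asked whether any ribosomal protein gene differed between fish fed the Control and the Whole Egg diet. All 82 members were among the 13379 genes tested with edgeR's quasi-likelihood test, and 0 were called at an adjusted p under 0.1, where 0% of all genes tested were called. At an unadjusted p under 0.05 there were again 0 members, against 3.9% of all genes tested (2.54% with a positive and 1.36% with a negative fold change). DESeq2 also called 0 members, with 0 at an unadjusted p under 0.05. The share of all genes at that p with DESeq2 is not reported here. No member had diets that did not overlap, against 2.14% of all genes tested (1.01% higher and 1.13% lower). The log2 fold change of Whole Egg against Control was below 0 for 79 of the 82 members, against 45.8% of all genes tested. Its median was −0.34 over the members and 0.04 over all genes tested. It was −0.34 over the 46 genes of the large subunit and −0.32 over the 35 of the small subunit. The 95% interval of every member included 0.

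The members moved together from fish to fish, so that their fold changes are not separate observations. Their median was −0.14 without Whole Egg-2, −0.18 without Control-4 and −0.51 without Whole Egg-4. Without Whole Egg-2, 75 members had a fold change below 0, against 48% of all genes tested, and 0 had an unadjusted p under 0.05, against 2.67%. Scaled by total counts alone the median was 0.09, while all genes tested had a median of 0.49, and the fold change was then below 0 for 3 members, against 10.5% of all genes tested. Relative to the summed member counts, 44 members were below 0, against 15.7% of all genes tested, and 0 had an unadjusted p under 0.05, against 5.67%. This scale is the sum of the members themselves and so centres their fold changes near 0, whatever their level on each diet. The study also left out the overlapping pair Control-4 with Whole Egg-1, or the outlying pair Control-2 with Whole Egg-2. Without the overlapping pair, 76 members were below 0 (46.5% of 13701 genes tested), 0 were called (0%) and 0 had an unadjusted p under 0.05 (7.34%). The study itself reported genes that differed between the diets in this set at an adjusted p under 0.1. It used DESeq2, a limit on the fold change and a stricter removal of genes with low counts, unlike the edgeR fit given here. In this set 0 members were also called with DESeq2, and 0 with a filter of at least 30 counts in every fish. The shares of all genes called in these fits are not reported here. Why the study's result differed was not tested. Without the outlying pair, 79 were below 0 (47.5% of 13267 genes tested), 0 were called (0%) and 0 had an unadjusted p under 0.05 (2.12%). With the fish number as a block, 0 members were called in the 8 fish and 4 had an unadjusted p under 0.05, against 5.64% of all genes tested. Without the outlying pair and with the block, 0 were called and 7 had an unadjusted p under 0.05, against 5.48%.

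**Figure D2:**
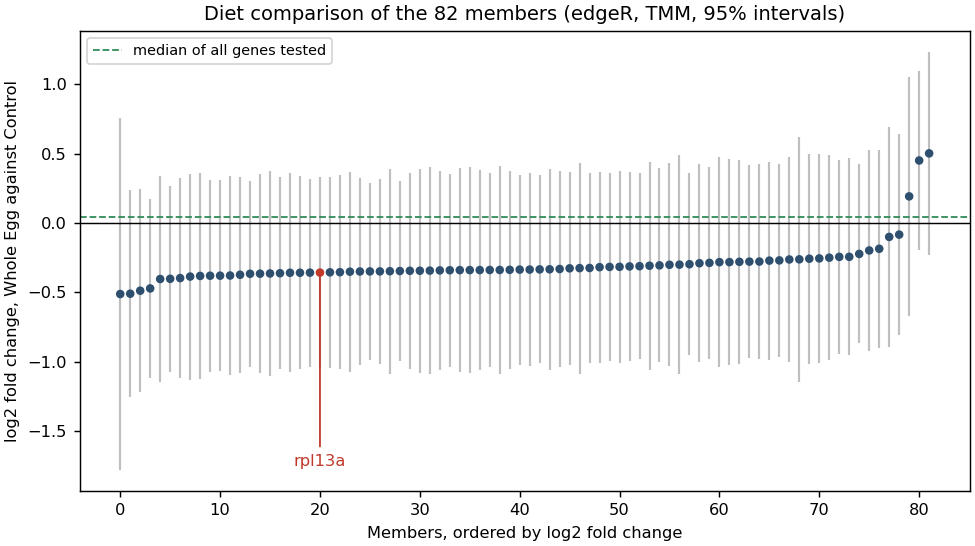
log2 fold change of each of the 82 members, Whole Egg against Control (edgeR with TMM), ordered from lowest to highest, with 95% intervals as grey lines; the dashed line is the median of all genes tested (0.04) and the red point is rpl13a. Most members lie close to −0.34, and every interval includes 0.

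Relative to each other, the members kept nearly constant proportions. When each gene was read as a share of the summed member counts, the SD between fish within diets had a median of 0.07 log2 units over the members and 0.63 over all genes tested. The members make up this scale and other genes do not, which by itself favours a smaller SD for the members. On the TMM scale the same SD had a median of 0.46 over the members and 0.48 over all genes tested. Relative to the summed member counts, 76 of 82 members had an SD below 0.2, a limit set after the values were seen, and 1.44% of the genes that are not members did. Part of this gap goes with level: of genes with a mean of at least 100 CPM, 75 of 76 members and 17.7% of 317 other genes had an SD below 0.2. The smallest SD belonged to rps6 (0.01), whose protein is phosphorylated by S6 kinase downstream of mTOR, followed by rpl7a (0.02) and rpl28 (0.03). The CPM of rps6 were 811, 542, 724 and 1004 in the Control fish and 636, 363, 622 and 812 in the Whole Egg fish, so that this gene, constant among the members, still varied between fish after TMM scaling. The median Pearson's r between pairs of members, after the diet means were removed, was 0.98 on the TMM scale. It was 0.84 by total counts and 0.05 relative to the members. These r are over 8 fish that share their scaling factors, and describe these libraries. The ratio of large to small subunit counts lay between 1.395 in Control-1 and 1.49 in Control-3, and between 1.42 and 1.45 on the Whole Egg diet.

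**Figure D3:**
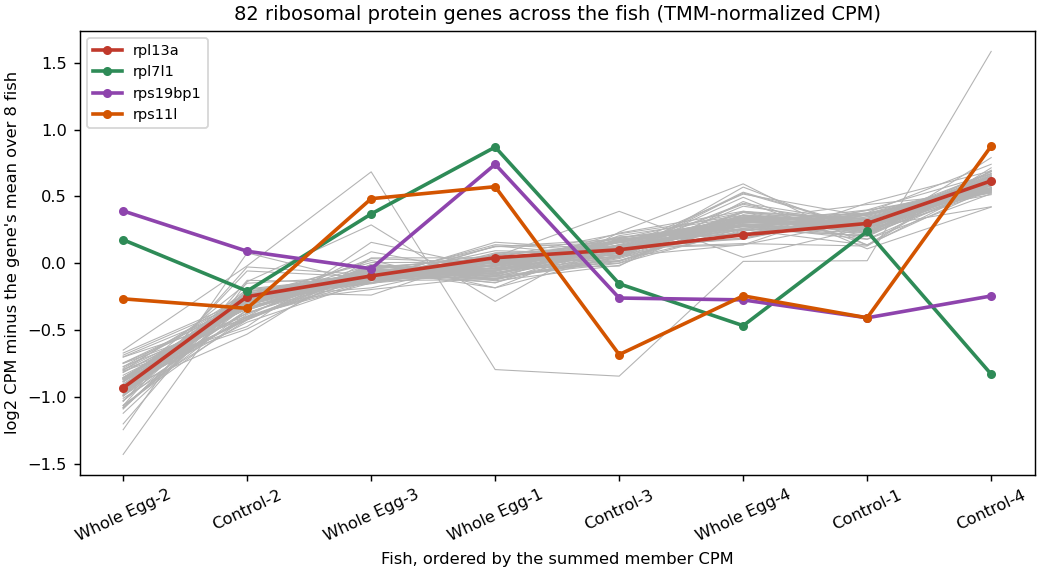
log2 CPM (TMM) of each member minus its own mean over the 8 fish, with the fish ordered by summed member CPM; grey lines are 78 members, and 4 are coloured. Nearly all grey lines rise together from Whole Egg-2 to Control-4 with rpl13a, while rpl7l1, rps19bp1 and rps11l follow other courses.

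Of the stalk proteins, which draw elongation factors to the large subunit, rplp0 had the highest mean CPM of all members (levels are not per length, since no transcript lengths were used). Its CPM were 1990, 1513, 1972 and 2947 in the Control fish and 1779, 1144, 1673 and 2016 in the Whole Egg fish (log2 fold change −0.35, SE 0.30, edgeR adjusted p = 0.828). For rplp1 they were 478, 390, 520 and 532 in Control fish and 411, 190, 374 and 410 in Whole Egg fish. This gene had the smallest unadjusted p of the members (log2 fold change −0.47, SE 0.29, unadjusted p = 0.134, edgeR adjusted p = 0.810), and Control-2 lay below Whole Egg-1 and Whole Egg-4. For rplp2 the means were 126 ± 32.8 and 108 ± 30.9 CPM, and for rplp2l 221 ± 32.3 and 194 ± 75.9 CPM (SD, n = 4 each), with log2 fold changes of −0.22 (SE 0.29) and −0.19 (SE 0.32). The stalk genes rplp1 and rplp2l were looser among the members (SD relative to the members 0.20 and 0.18) than rplp0 (0.13) and rplp2 (0.09).

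Among the other genes of the large subunit, rpl30 had 352, 236, 278 and 416 CPM in the Control fish and 272, 112, 233 and 283 in the Whole Egg fish (log2 fold change −0.51, SE 0.33, edgeR adjusted p = 0.810). For rpl4, the third member by mean CPM, the means were 1608 ± 399 and 1217 ± 315 CPM (SD, n = 4 each, log2 fold change −0.40, SE 0.30). For rpl11, which binds the 5S ribosomal RNA with rpl5 and in mammals also binds MDM2, they were 574 ± 184 and 436 ± 128 CPM (log2 fold change −0.40, SE 0.32). With rplp1 and rpl22l1, these are the 5 members with a negative fold change and the smallest unadjusted p. The large subunit gene rpl6 was among the steadiest on the TMM scale (SD 0.38), with 936 ± 205 and 736 ± 194 CPM (log2 fold change −0.35, SE 0.29).

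In the small subunit, rps2 had the highest mean CPM, with 2301, 1339, 1798 and 2958 in the Control fish and 1639, 1038, 1656 and 2092 in the Whole Egg fish (log2 fold change −0.39, SE 0.33, edgeR adjusted p = 0.83). The gene taken as rpsa, which codes for a protein also known as the laminin receptor, had 1447 ± 362 and 1186 ± 337 CPM (SD, n = 4 each, log2 fold change −0.29, SE 0.31). The fold changes nearest 0 among the genes with more than 60 CPM were those of rps28 (−0.08, SE 0.32) and rpl36al (−0.10, SE 0.35), which are named here after their values were seen.

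Only 3 members had a positive fold change in the 8 fish with TMM. Their median r with the other members was −0.29 for rpl7l1, −0.51 for rps19bp1 and 0.46 for rps11l, against at least 0.89 for 78 members. The gene rpl7l1, related to rpl7, had 12.96, 9.52, 9.88 and 6.19 CPM in the Control fish and 20.1, 12.4, 14.2 and 7.96 in the Whole Egg fish (log2 fold change 0.50, SE 0.32, edgeR adjusted p = 0.810). It was lowest in Control-4, the fish in which most members were highest. For rps19bp1 the CPM were 2.09, 2.95, 2.31 and 2.34 in Control fish and 4.62, 3.63, 2.69 and 2.29 in Whole Egg fish (log2 fold change 0.45, SE 0.29, edgeR adjusted p = 0.810). For rps11l they were 7.86, 8.25, 6.49 and 19.1 in Control fish and 15.5, 8.67, 14.6 and 8.80 in Whole Egg fish (log2 fold change 0.19, SE 0.38, edgeR adjusted p = 0.908). All 3 genes had diets that overlapped. Scaled by total counts, rpl7l1 was the 1 member with an unadjusted p under 0.05 (log2 fold change 0.92, SE 0.40, unadjusted p = 0.0442, edgeR adjusted p = 0.399), where 11% of all genes tested had one. Under the scale of the members, its fold change was 0.87 (SE 0.46, edgeR adjusted p = 0.595).

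**Figure D4:**
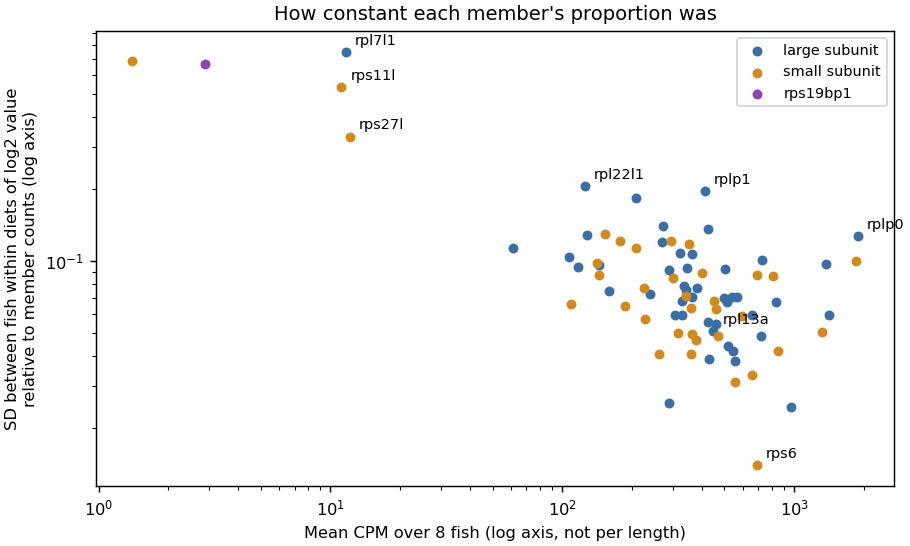
SD between fish within diets of each member's log2 level relative to the summed member counts, against its mean CPM, both on log axes; colours give the subunit. Members above 60 CPM lie between 0.01 (rps6) and 0.21 (rpl22l1), and the 5 members with the fewest counts lie between 0.33 and 0.75.

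Members named as copies of another member allow a ratio that needs no scaling between libraries. Reads that mapped equally well to several places were not counted, so that near-identical copies may lack reads. The ratio of rpl22l1 to rpl22 counts was 0.818, 1.15, 0.759 and 0.826 in the Control fish and 0.873, 0.573, 0.712 and 0.630 in the Whole Egg fish. Whole Egg-1 lay above 3 of the Control fish, and the mean difference of −0.35 log2 units (SD within diets 0.27) had an exact two-sided permutation p of 0.143. Over the 8 pairs compared, the Benjamini-Hochberg adjusted p of this exact test was 0.457. The ratio of rpl7l1 to rpl7 was 0.0127 ± 0.00477 in Control fish and 0.0239 ± 0.0112 in Whole Egg fish (SD, n = 4 each, exact permutation p = 0.171, adjusted 0.457). The copies of rpl5 held 0.726 ± 0.0372 (ENSDARG00000020197 to ENSDARG00000015862) in Control fish and 0.693 ± 0.0487 in Whole Egg fish, a small spread beside that of rpl22l1. Those of rps26 were as tight, at 0.596 ± 0.0371 and 0.576 ± 0.0444 (ENSDARG00000037071 to ENSDARG00000030408). The ratio of rplp2l to rplp2 was 1.79 ± 0.215 and 1.75 ± 0.299. The smallest exact p that 4 fish against 4 allow is 0.0286. The gene rps27l, a copy of rps27, had 13.2 ± 2.84 and 11.04 ± 5.57 CPM (log2 fold change −0.26, SE 0.39), and the genes named rps27.1 and rps27.2 fall outside the name pattern.

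Among the 15 genes outside the members with the smallest SD relative to them, chosen after the values were seen, 10 were on a list of cytosolic translation factors and other mRNAs of this class. The gene eif5a (0.03), which codes for a translation factor and is not on that list, came first. It was followed by eef1b2 (0.05), eif3m (0.07), eef1a1l1 (0.07) and rack1 (0.07), a protein bound to the small subunit. The gene fau, which codes for a ribosomal protein fused to a ubiquitin-like protein, was at 0.09. Of the 41 tested genes on the list, 23 (56.1%) had an SD below 0.2 relative to the members, against 2.0% of all genes tested. Among genes with a mean of at least 100 CPM, 15 of 19 on the list did, against 17.7% of the 317 genes that are not members. Of 74 mitochondrial ribosomal protein genes, none of which had a mean above 6.55 CPM, 1 had an SD below 0.2. Of 69 ribosome biogenesis genes, 2 did, both among the 4 with at least 100 CPM.

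In the diet comparison, where 54.2% of all genes tested had a fold change above 0, the list of translation factors had 30 of 41 below 0 (median −0.23). Of these 41, 1 had an unadjusted p under 0.05, against 3.9% of all genes tested: pabpc1b, which binds poly(A) tails (log2 fold change −0.98, SE 0.35, edgeR adjusted p = 0.810). The mitochondrial ribosomal protein genes had 60 of 74 above 0 (median 0.17), with 1, mrpl17, higher at an unadjusted p under 0.05. The ribosome biogenesis genes had 66 of 69 above 0 (median 0.51), with 2, rrp1 and rpf2, higher at that p, where 2.54% of all genes tested were. Of 26 tested genes upstream of translation, such as mtor, rptor and larp1, 13 were above and 13 below 0. Of these, 1 had an unadjusted p under 0.05, ddit4, a stress-induced inhibitor of mTOR signalling (log2 fold change 2.28, SE 0.84, edgeR adjusted p = 0.810). No gene of these lists was called at an adjusted p under 0.1.

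Leaving out Whole Egg-2 moved the median of the translation factors more than those of the mitochondrial ribosomal protein and biogenesis genes. Without it, 26 of 41 translation factors were below 0 (median −0.06), and 56 of 74 mitochondrial ribosomal protein genes and 65 of 69 biogenesis genes were above 0 (medians 0.16 and 0.61), against 52% of all genes tested. The biogenesis genes higher at an unadjusted p under 0.05 then numbered 5 of 69 and the upstream genes 3 of 26, against 1.39% of all genes tested. Summed CPM of the biogenesis genes were highest in Whole Egg-1 (2059) and lowest in Whole Egg-2 (878). Those of Whole Egg-3 (1313) and Whole Egg-4 (1169) lay within the range of the Control fish (1079 to 1416). Counts of this list without Whole Egg-1 are not reported here. Of the 16 hepatocyte markers, 15 were lowest in Whole Egg-2, as most members were, and 6 were highest in Control-4. Without the vitellogenins, their summed CPM were 9409 in Whole Egg-2 and highest in Control-2 (35592), with Control-4 at 27789. In the 8 fish, 15 of the 16 had a fold change below 0 (median −0.34), against 45.8% of all genes tested. Without Whole Egg-2, 11 of the 16 did (median −0.10), against 48% of all genes tested. Whole Egg-2 was also the fish with 670 CPM of ovary genes. The part of either list in the level of the members was not tested.

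The reference gene rpl13a (ENSDARG00000044093) had 529, 362, 461 and 659 CPM in the Control fish and 443, 226, 403 and 498 CPM in the Whole Egg fish. The highest fish held 2.92 times the level of the lowest, and the diets overlapped. The means were 503 ± 125 and 392.3 ± 118 CPM (SD, n = 4 each), and the log2 fold change was −0.36 with an SE of 0.31 and an adjusted p of 0.83 from edgeR. On log2 CPM the diets differed by −0.38 with an SD within diets of 0.44 (two-sided exact permutation test, p = 0.314). As a share of total counts, rpl13a had 410, 419, 406 and 449 CPM in Control fish and 410, 385, 475 and 489 in Whole Egg fish. On that log2 scale the diets differed by 0.06 (SD within diets 0.13, exact permutation p = 0.514), and the direction was the opposite of that on the TMM scale. Relative to the members they differed by −0.03 (SD within diets 0.05, exact permutation p = 0.457). Adjusted over the 3 scales, each exact p was 0.514.

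Among the members, rpl13a ranked 30 of 82 by mean CPM, 62 of 82 by fold change from the highest, and 19 of 82 by SD relative to the members, from the smallest. It made up between 1.18% and 1.31% of the member counts. Its SD of 0.05 relative to the members came to 3.6%, against a counting error of 1.14% at its lowest count, 7705. On this scale, of which rpl13a is a part, its spread lay at the 0.146 percentile of the 13379 genes tested, and by total counts at the 0.220 percentile. On the TMM scale it lay at the 43.6 percentile. Of 16 tested genes in use as RT-PCR references, 7 had a fold change above and 9 below 0 (median −0.08). Of these, 2, actb1 and ubc, were higher at an unadjusted p under 0.05, against 2.54% of all genes tested. The CPM of actb1 were 161 in Whole Egg-2, against 20.75 to 75.2 in the other Whole Egg fish. Without Whole Egg-2, 1 reference gene was higher at that p, against 1.39% of all genes tested. On the TMM scale the 16 reference genes had a median SD of 0.39, against 0.44 for rpl13a, and most were steadier than rpl13a. Picked after their values were seen, ppiab (SD 0.12, log2 fold change −0.11, SE 0.18) and tmem50a (SD 0.15, log2 fold change −0.13, SE 0.18) were among these. The reference gene eef1a1l1 (SD 0.39) moved with rpl13a, and actb1 varied more, with an SD of 0.97.

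The study measured ucp2, gpx4a and elovl5 by RT-PCR against rpl13a. It reported trends like those of its sequencing in sequenced females, shown for 3 fish per diet, with the overlapping pair left out. The study had picked the 3 genes from those that differed between the diets in that reduced set. With more females, and in males, its RT-PCR found no difference between the Control and Whole Egg diets for these 3 genes. The counts of these genes were here also divided by those of rpl13a in each fish. The log2 ratio of ucp2, a mitochondrial uncoupling protein, was −5.82, −5.92, −6.12 and −6.53 in the Control fish and −6.25, −3.70, −4.65 and −4.80 in the Whole Egg fish. Whole Egg-1 lay within the Control fish and the other 3 above them, and the mean difference was 1.25 (SD within diets 0.78, two-sided exact permutation p = 0.114, adjusted over the 3 genes 0.257). Without Whole Egg-1 it was 1.71 (exact permutation p = 0.0286, adjusted 0.0857), and without Whole Egg-2 it was 0.86 (exact permutation p = 0.171). Leaving out Whole Egg-1 removes the overlap of the diets, and diets fully apart always give the smallest p this test allows.

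For gpx4a, which reduces lipid peroxides, the log2 ratio was −0.46, 0.17, −0.52 and −0.88 in the Control fish and −0.56, −0.50, −1.06 and −1.43 in the Whole Egg fish. The diets overlapped, with a mean difference of −0.47 (SD within diets 0.44, exact permutation p = 0.171, adjusted 0.257). On the TMM scale the diets did not overlap for gpx4a and the difference was −0.85 (exact permutation p = 0.0286, adjusted 0.0857). For elovl5, a fatty acid elongase, the log2 ratio was −3.11, −2.44, −2.89 and −3.89 in the Control fish and −3.08, −3.43, −3.91 and −3.64 in the Whole Egg fish. The diets overlapped for elovl5, and the mean difference was −0.43 relative to rpl13a (SD within diets 0.50, exact permutation p = 0.286, adjusted 0.286) and −0.81 on the TMM scale (exact permutation p = 0.0571, adjusted 0.0857). The study chose these genes from the same libraries, so that these p are no independent evidence. Relative to the mean of all members in place of rpl13a, the differences were 1.19 for ucp2, −0.52 for gpx4a and −0.49 for elovl5.

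**Figure D5:**
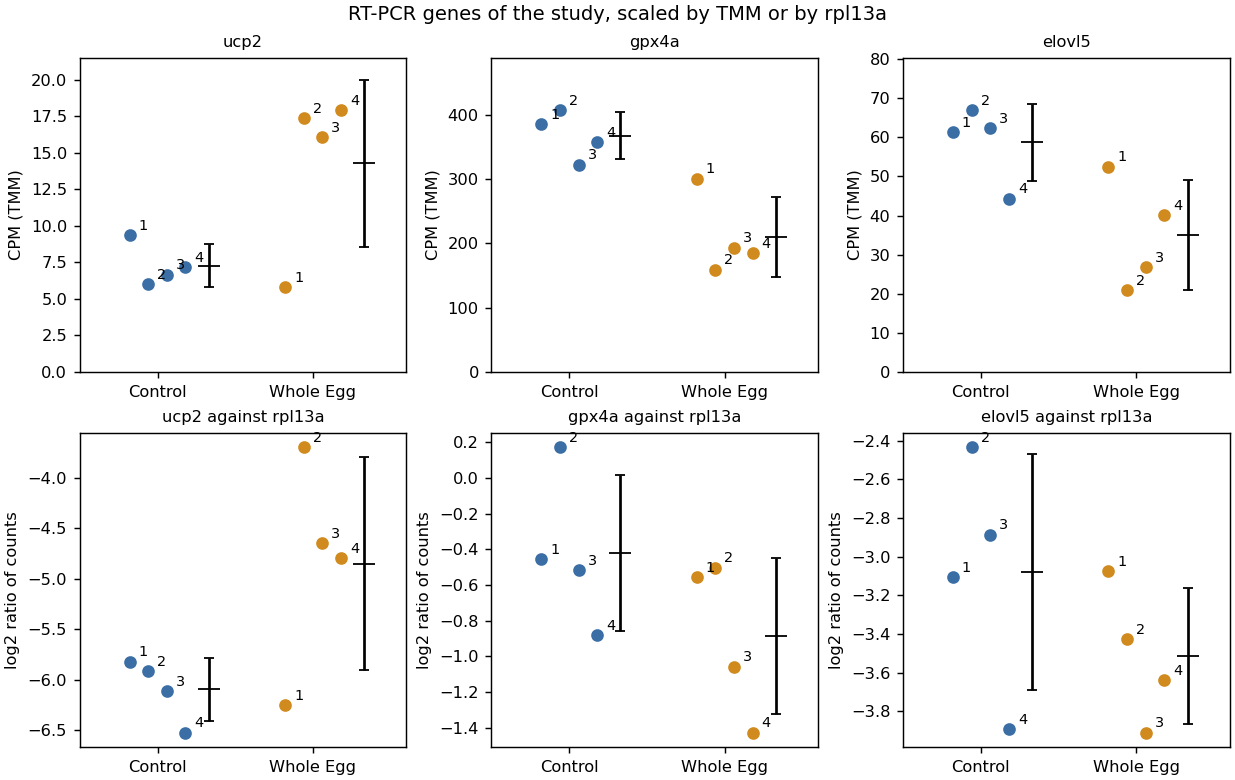
CPM with TMM scaling (top) and log2 ratio of counts to rpl13a (bottom) of ucp2, gpx4a and elovl5; points are fish with their numbers, and bars give the mean and SD of 4 fish. For gpx4a the diets are apart with TMM and overlap relative to rpl13a, and for ucp2 Whole Egg-1 lies apart from the other 3 Whole Egg fish, below all Control fish in CPM (5.80 against 5.98 to 9.34) and among them relative to rpl13a.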

How the data were processed

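The authors depleted total RNA of ribosomal RNA, made strand-specific libraries, sequenced them from 1 end (75 bp), filtered the reads with Trimmomatic 0.36 and aligned them to GRCz11 with STAR 2.5.2b. The deposited files hold raw counts of uniquely mapped reads per gene, without normalization. The column of the strand that held 97.9% of stranded counts was used. Reads with several equally good places (33.9% to 37.9% of reads) are left out of these counts. No pair of libraries agreed within counting noise.

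The tests used edgeR 4.0.16 under R 4.3.3 (filterByExpr with a minimum count of 10, TMM, quasi-likelihood test, Benjamini-Hochberg adjustment over all genes tested) and, as an alternative, DESeq2 1.42.0. Log2 CPM have a prior count of 2. The edgeR steps were first tested on simulated data. Single values were compared with two-sided exact permutation tests over fish. Alternatives were other normalizations, filters, strand columns, the fish number as a block, and leaving out fish. Scaling to member counts, DESeq2 with the block, fits without Whole Egg-2, the copy ratios, the limit of 100 CPM and the hepatocyte sum without vitellogenins were added after seeing the data. Named genes were rpl13a, the 5 members with the smallest p in each direction (of which only 3 were positive), those with the highest and lowest CPM and SD, copies of other members, and stalk genes. Members and lists were chosen with earlier results of these data known. A name was found for 29201 of 32520 identifiers, and the name table's symbols were matched without regard to case. The values of some members, copy pairs and other genes are not reported here by name.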

Additional observations from a re-analysis of the deposited data

Results flagged for a closer look

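Within each diet, the highest or lowest fish was compared with the other 3 by Dixon's test, in 98 groups of 4 fish, and 7 groups (7.14%) passed its 95% limit, where chance flags about 1 in 20. Among the members, the CPM of rplp1 in Whole Egg-2 were 190, against 374 to 411 in the other Whole Egg fish. Those of rps11l in Control-4 were 19.1, against 6.49 to 8.25. The share of all counts on the members was 3.58% in Control-4, against 3.26% to 3.30% in the other Control fish.

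Summed marker CPM also stood apart. Those of ovary genes in Whole Egg-2 were 670, against 4.52 to 80.2. Those of intestine genes were 289 in Control-2, against 9.76 to 18.1, and 22.1 in Whole Egg-4, against 9.63 to 10.7. Those of immune genes were 11.8 in Control-3, against 6.30 to 7.14. Their part in the levels of the members was not tested.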

How the results depend on the processing

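No member was called at an adjusted p under 0.1 in any alternative run in the 8 fish or in either set of 6. The log2 fold change of rpl13a kept its negative sign except with total counts alone, where it was 0.064 (edgeR adjusted p = 0.817), and leaving out 1 fish gave −0.50 to −0.16 (−0.16 without Whole Egg-2, −0.20 without Control-4). The median of the members moved from −0.51 to −0.14 when 1 fish was left out. The share of counts on the members, as a log2 ratio of the diet means, was 0.09, and it was −0.18 without the 10 genes with the most counts. On the TMM scale, gpx4a (−0.85) and elovl5 (−0.81) passed an adjusted exact permutation p of 0.1, which they did not relative to rpl13a. Leaving out 1 fish gave 0.86 to 1.71 for ucp2, which passed only without Whole Egg-1, −0.62 to −0.27 for gpx4a (−0.27 without Control-2, −0.29 without Whole Egg-4), and −0.70 to −0.22 for elovl5 (−0.22 without Control-2, −0.70 without Control-4). The cause was not tested. Same-numbered fish deviated together with r from 0.08 to 0.45, and 3 of 4 Control fish correlated best with the Whole Egg fish of their own number, a hint of pairing from the data. The labels do not say what a number stands for and 1 r was under 0.1, so the fish were not treated as pairs. With the number as a block, 0 members were called and 4 had an unadjusted p under 0.05 with edgeR, against 5.64% of all genes tested. With the block and without Control-2 and Whole Egg-2, 7 did with edgeR, against 5.48% of all genes tested. With DESeq2 and the block in the 8 fish, 5 did, and the share over all genes is not reported here. The block gave rpl13a a log2 fold change of −0.38 (edgeR adjusted p = 0.740). The number of fish, 4 per diet, limits the precision more than the counts do: rpl13a had at least 7705 counts in every fish.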
